A study of Rattus norvegicus with 6 samples.

Results

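The enzymes of mitochondrial and peroxisomal fatty acid beta-oxidation were followed in rat RBL-2H3 cells given PIO. The set was a fixed list of 37 genes chosen by name and function, with earlier results of these data known. Of these, 36 were found under their listed name in the deposited table of 22601 genes, and 1, Acaa1a, was found through its GeneID under the older symbol Acaa1. By textbook location 21 act in mitochondria and 12 in peroxisomes, and 4 (Acad11, Eci2, Ech1 and Amacr) are known in both or could not be assigned and were kept apart. The study set 3 libraries from cells kept for 6 h with PIO, a PPARγ agonist, at 10 µM against 3 control libraries from cells not given PIO, all labelled as wild type. These cells, a basophilic leukemia line of the rat, stand in for mast cells and basophils, so neither liver nor adipose tissue is represented. No vehicle is recorded for the control libraries, so an effect of a solvent cannot be told apart from that of PIO. Whether the replicates were grown as separate cultures is not labelled, and p-values therefore cover the spread among the libraries alone, which could be technical.

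Beta-oxidation shortens fatty acids as CoA esters through repeated rounds of dehydrogenation, hydration, another dehydrogenation and thiolysis, with acetyl-CoA released in each round. In mitochondria the first step is carried out by acyl-CoA dehydrogenases, which differ in the chain length they prefer and pass their electrons through electron transfer flavoprotein to the respiratory chain. Peroxisomes use oxidases that make hydrogen peroxide, and they shorten very long and branched chains whose products are finished elsewhere. In rodent liver many genes of both pathways are known targets of PPARα, a relative of PPARγ.

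The library totals behind the values were 14048202 to 15084729 reads, recovered from the steps of the deposited FPKM values (fragments scaled to gene length and to the reads of the library), and the libraries correlated at 0.992 to 0.996 with each other across the genes tested, which are not independent replicates. Of 12 mast cell marker genes 10 reached a mean of 1 FPKM, with Ms4a2, the IgE receptor beta chain gene, at 825 ± 21.0 FPKM with PIO and 861 ± 7.95 FPKM in control (SD, n = 3 each). The tryptase gene Tpsab1 was listed at 0, and the summed mast cell list reached 4716 to 4866 FPKM with PIO and 4694 to 4883 FPKM in control. Among markers of other cells, 1 of 8 macrophage, 1 of 6 fibroblast, 1 of 5 hepatocyte and 0 of 5 adipocyte genes reached 1 FPKM, and the hepatocyte gene Alb and the adipocyte gene Fabp4 were listed at 0. The summed fibroblast list, nearly all of it Col3a1 and with Dcn at 0, was lower with PIO at 4.69 to 5.03 FPKM than in control at 5.12 to 5.61 FPKM, and its part in the results was not tested. Control replicate 3 stood apart in Atf4, a stress-response regulator, which was at 243, 240 and 255 FPKM in PIO replicates 1 to 3 and at 279, 277 and 617 FPKM in control replicates 1 to 3. Control replicate 3 was also the lowest library for 16 of the 34 tested members, against 5 and 9 for control replicates 1 and 2. Each PIO library was the lowest for 1 or 2 members. Leaving out control replicate 3 moved the log2 fold change of 13 members by over 1.5 times, and the value without it is given below for some members. Etfb went from 0.1484 to 0.12, Acaa2 from 0.1887 to 0.1551, Hadh from 0.172 to 0.1296 and Acads from 0.1576 to 0.116. Abcd3 went from 0.1394 to 0.1155 and Eci2 from 0.1712 to 0.1019, while Hadhb rose from 0.0913 to 0.1011. These are the 7 members with an unadjusted limma p under 0.05, and of them only Eci2 is among the 13.

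No beta-oxidation gene passed the threshold for a difference between PIO and control. Of the 37 genes 34 reached a mean of 0.5 FPKM and were tested with limma on log2(FPKM + 0.5), and 0 had an adjusted p under 0.05 after Benjamini-Hochberg adjustment over all 10410 genes tested, where 4 genes (0.0384%) passed. The lowest adjusted p in the set was 0.280 for Etfb. At an unadjusted limma p under 0.05 there were 7 members higher and 0 lower with PIO, against 6.36% of all genes higher and 6.15% lower. Limma-voom on the recovered reads called 0 members as well, where 7 of all genes tested passed. In bulk samples a difference in RNA per cell and a difference in the number of cells of a kind cannot be told apart.

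The members lay mostly on the PIO side of 0. The log2 fold change of PIO over control was above 0 for 31 of the 34 tested members and below 0 for Acadsb, Acad11 and Acot2, while 54.0% of all genes tested were above 0. The median log2 fold change was 0.07 over the members and 0.0094 over all genes tested, a small difference on this scale. Because members were chosen with earlier results of these data known, these counts are a description and carry no p. All 3 PIO values lay above all 3 control values for 11 of 34 tested members (32.4%), against 10.5% of all genes tested, and below them for 1, Acadsb, against 8.09%. The 11 include Scp2, whose lowest PIO value exceeded its highest control value by 0.0056 FPKM, and no tolerance was applied, so 10 remain if Scp2 is taken as a tie. Scaling each library to the same FPKM total (TPM scaling) left 25 of the 34 members above 0 and 42.6% of all genes, with medians of 0.042 and -0.018. The members above 0 as deposited but below it under that scaling were Acat1, Eci1, Etfdh, Decr2, Acot8 and Ech1. The summed FPKM of all genes was 502934, 512046 and 515593 in PIO replicates 1 to 3 and 506888, 496066 and 496980 in control replicates 1 to 3. The median length of the tested members was 1923 bases, against 2790 bases for all genes tested, although some members are longer, such as Acox3 at 6562 bases. After a correction for gene length the median log2 fold change over members was 0.053 with 26 above 0, against 50.8% of all genes. Without control replicate 2 there were 26 members above 0, against 53.4% of all genes. The median over members was then 0.064, the lowest of the medians found on leaving out single libraries, which reached 0.086.

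**Figure D1:**
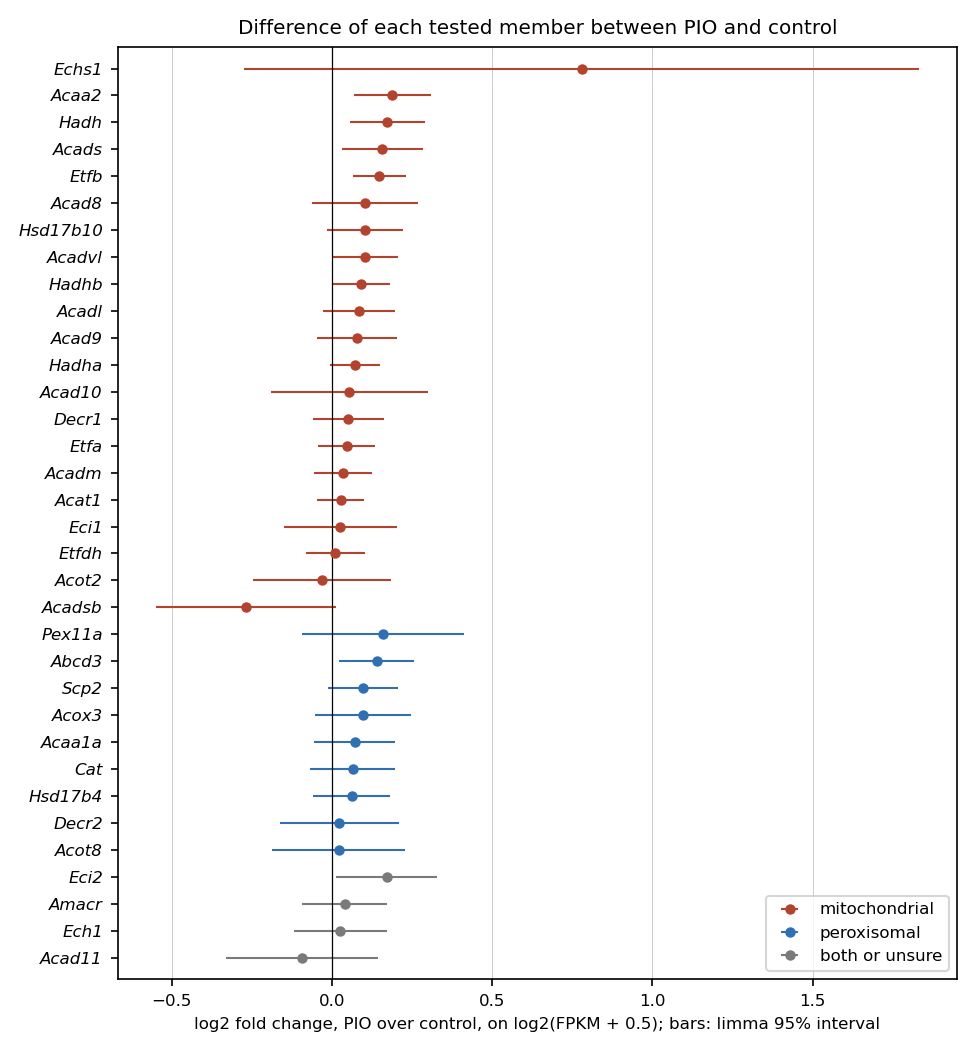
The plot gives the log2 fold change of PIO over control on the log2(FPKM + 0.5) scale for each of the 34 tested members, with limma's 95% interval as a bar and colours for the compartment. Points crowd just right of 0, with the widest interval at Echs1 and the lowest value at Acadsb.

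Mitochondrial and peroxisomal genes had similar median differences. The median log2 fold change was 0.08 over 21 tested mitochondrial members, of which 19 were above 0 and 2 below, and 0.07 over 9 tested peroxisomal members, all 9 of which were above 0, although Decr2 and Acot8 lay below it under TPM scaling. The difference of the medians was 0.0089, within the spread between libraries of 0.028. That spread is the pooled SD within groups of the median mitochondrial minus the median peroxisomal level in each library. Relative to the mean of the 6 libraries, the median mitochondrial member stood at 0.028, 0.069 and 0.058 on the log2 scale in PIO replicates 1 to 3 and at -0.023, -0.042 and -0.028 in control replicates 1 to 3. The median peroxisomal member stood at 0.047, 0.0205 and 0.051 with PIO and at -0.032, -0.0595 and -0.077 in control. Averaged by group, these positions were 0.052 with PIO and -0.031 in control for mitochondrial members. For peroxisomal members they were 0.040 and -0.056. By this measure the peroxisomal gap was the wider, the reverse of the order of the median log2 fold changes. In both compartments every PIO library lay above every control library, and PIO replicate 2 was the highest library for the mitochondrial genes and the lowest of the PIO libraries for the peroxisomal ones. Without PIO replicate 2 the medians were 0.065 for mitochondrial and 0.094 for peroxisomal members, which turned the sign of their difference, to -0.029. On leaving out each library in turn the difference lay between -0.029 and 0.023, so the order of the compartments was not stable. Summed over the tested members, mitochondrial transcripts reached 935 ± 12.9 FPKM with PIO and 874 ± 11.4 FPKM in control (SD, n = 3 each). Without Etfb these sums were 681 ± 8.90 and 644 ± 5.82 FPKM. Peroxisomal transcripts reached 163.5 ± 3.85 FPKM with PIO and 154.5 ± 4.35 FPKM in control. Their ranges nearly touched, at 159.6 to 167.3 FPKM with PIO and 151.1 to 159.4 FPKM in control. The lowest PIO sum was in PIO replicate 2, where all genes summed to 512046 FPKM. The highest control sum was in control replicate 1, where all genes summed to 506888 FPKM. Relative to these totals the peroxisomal gap is not kept. The ratio of the mitochondrial to the peroxisomal sum was 5.72 ± 0.179 with PIO and 5.66 ± 0.0889 in control, and the ranges overlapped.

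**Figure D2:**
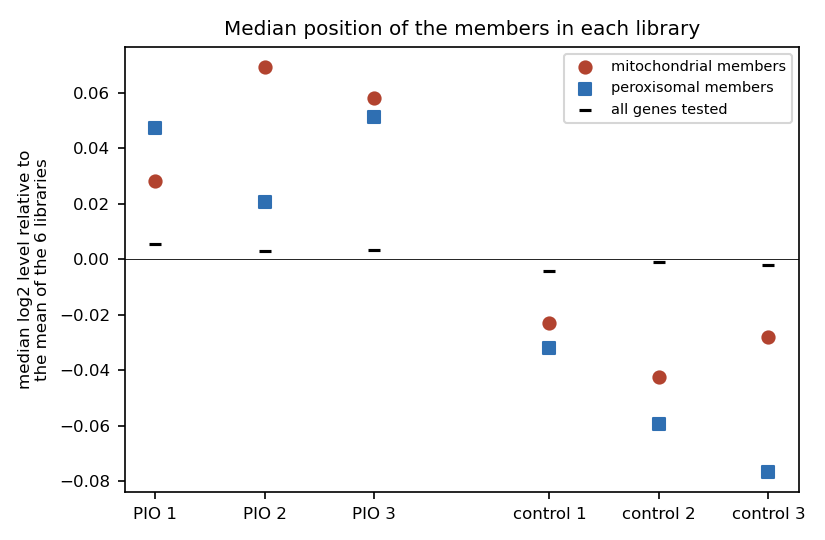
Each point is the median log2 level of the 21 mitochondrial or 9 peroxisomal tested members in 1 library, relative to the mean of the 6 libraries, with PIO libraries on the left and the same median over all genes tested as a dash. The 3 PIO libraries lie above 0 and the 3 control libraries below it for both compartments, while all genes tested stay within 0.0054 of 0.

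**Figure D3:**
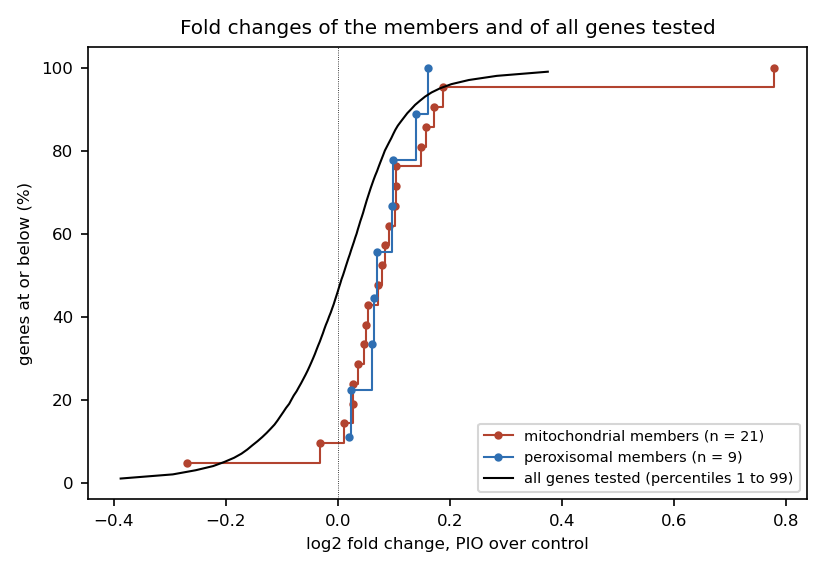
The curves give the percentage of genes at or below each log2 fold change of PIO over control, for the mitochondrial members, the peroxisomal members and all genes tested. Both member curves lie to the right of the curve of all genes over most of the range, with Acadsb at the left end and Echs1 at the right end of the mitochondrial curve.

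Levels spanned a wide range in these cells. The order of mean FPKM over the 6 libraries began with Etfb, Acat1, Hadha, Acadl, Hsd17b10 and Hadhb, all mitochondrial, and the first peroxisomal gene, Scp2, had rank 9. Between neighbours in that order the ranges over libraries did not overlap from Etfb to Acat1, from Acat1 to Hadha and from Hadha to Acadl, whereas Acadl overlapped Hsd17b10. From Hadhb down to Acadvl each gene overlapped the next. The median mean level was 27.4 FPKM for tested mitochondrial members and 13.8 FPKM for tested peroxisomal members. Replicates were tight, with a median coefficient of variation over members of 4.34% with PIO and 4.91% in control.

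**Figure D4:**
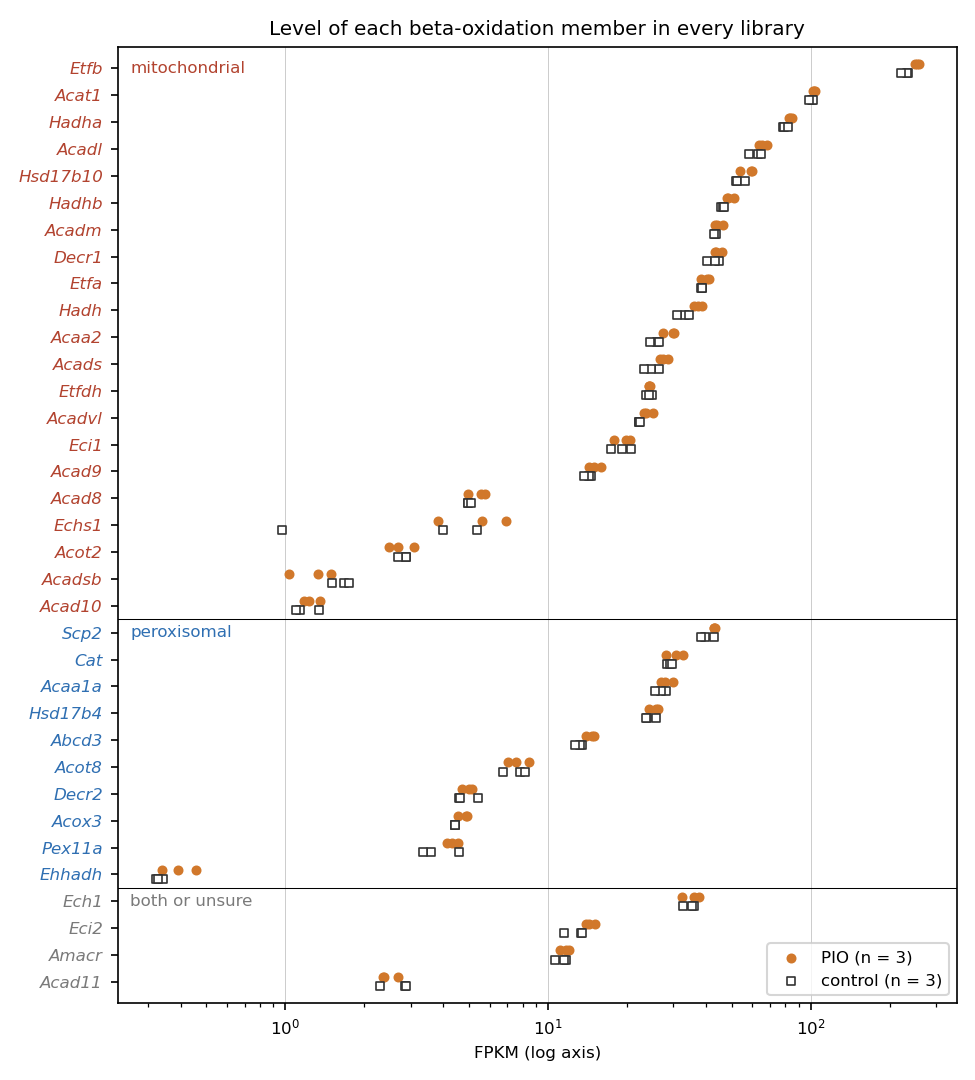
Levels in FPKM on a log axis are shown for the members above 0.1 FPKM in every library, filled circles for PIO and open squares for control, grouped by compartment and ordered by mean level. Etfb is highest, with a mean of 254 FPKM with PIO and 229 FPKM in control, and Ehhadh is lowest, at 0.395 and 0.330 FPKM. Abcd2 and Acox2, at or close to 0, are left out.

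The electron transfer genes held both the most abundant member and the one with the smallest p. Etfb, the beta subunit of the electron transfer flavoprotein that collects electrons from the acyl-CoA dehydrogenases, stood at 249.9, 258 and 254 FPKM in PIO replicates 1 to 3 and at 234, 234 and 220 FPKM in control replicates 1 to 3. The groups did not overlap, and the mean with PIO was 10.8% above control, with a log2 fold change of 0.15 (SE 0.04, limma 95% interval 0.07 to 0.23, adjusted p = 0.280). With the correction for gene length the log2 fold change of Etfb was 0.10. Its partner subunit Etfa averaged 39.8 ± 1.27 FPKM with PIO and 38.5 ± 0.138 FPKM in control (SD, n = 3 each), and Etfdh, the oxidoreductase that passes the electrons to ubiquinone, 24.35 ± 0.182 and 24.2 ± 0.616 FPKM. Neither passed, with log2 fold changes of 0.05 and 0.01 (limma adjusted p = 0.627 and 0.930), and the groups of each overlapped. The ratio of Etfb to Etfa was 6.385 ± 0.251 with PIO and 5.95 ± 0.220 in control, and its ranges of 6.12 to 6.61 and 5.70 to 6.08 did not overlap. The margin was narrow, with 6.115 in PIO replicate 1 and 6.078 in control replicate 2, and the ratio was not tested. The gene lengths recovered from the FPKM were 841 bases for Etfb and 1301 bases for Etfa.

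Among the acyl-CoA dehydrogenases the long-chain enzyme gene Acadl was the most abundant, at 65.8 ± 2.49 FPKM with PIO and 62.1 ± 3.39 FPKM in control (SD, n = 3 each). Medium-chain Acadm followed with 44.5 ± 1.66 and 43.4 ± 0.289 FPKM. Of the chain-length series the short-chain gene Acads had the smallest p. It stood at 26.8, 27.4 and 28.7 FPKM in PIO replicates 1 to 3 and at 26.4, 24.6 and 23.3 FPKM in control replicates 1 to 3. The groups did not overlap (log2 fold change 0.16, SE 0.05, limma adjusted p = 0.346). The very-long-chain gene Acadvl, whose product works at the inner membrane, averaged 24.0 ± 1.06 FPKM with PIO and 22.3 ± 0.118 FPKM in control, also without overlap (0.10, limma adjusted p = 0.406). Acad9, known mainly for the assembly of respiratory complex I, was at 15.1 ± 0.775 and 14.2 ± 0.449 FPKM. All 4 chain-length genes and Acad9 were above 0 in log2 fold change, and none passed.

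The remaining dehydrogenases, Acadsb and Acad8 of branched-chain amino acid breakdown and also Acad10 and Acad11, were scarce and had values on both sides of 0. Acadsb, which acts on the branched short chain derived from isoleucine, stood at 1.498, 1.03 and 1.33 FPKM in PIO replicates 1 to 3 and at 1.509, 1.67 and 1.74 FPKM in control replicates 1 to 3. It was the only member with all PIO values below all control values, by a narrow margin between PIO replicate 1 and control replicate 1, and it rested on 98, 69 and 87 reads with PIO and 106, 110 and 120 reads in control. Its log2 fold change of -0.27 (SE 0.12, limma 95% interval -0.55 to 0.01, adjusted p = 0.416) did not pass, and it was -0.16 without PIO replicate 2. Acad8, the isobutyryl-CoA dehydrogenase of valine breakdown, averaged 5.43 ± 0.402 FPKM with PIO and 5.01 ± 0.0901 FPKM in control (0.10, limma adjusted p = 0.566). Acad10, less well characterised, was at 1.26 ± 0.0874 and 1.19 ± 0.132 FPKM. Acad11, which takes very long chains in mammals, stood at 2.35, 2.69 and 2.37 FPKM with PIO and at 2.84, 2.30 and 2.88 FPKM in control. Its groups overlapped (log2 fold change -0.09, limma adjusted p = 0.721), and leaving out single libraries gave -0.18 without control replicate 2 and -0.05 without control replicate 3 as the extremes.

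Genes of the later mitochondrial steps were all above 0 in log2 fold change, 7 of 7, with a median of 0.10, although Acat1 was at -0.0019 under TPM scaling. Hadha and Hadhb encode the alpha and beta subunits of the mitochondrial trifunctional protein, which carries out the last steps for long chains. Hadha stood at 83.6, 83.0 and 85.2 FPKM in PIO replicates 1 to 3 and at 78.7, 79.0 and 81.8 FPKM in control replicates 1 to 3. Hadhb stood at 48.6, 51.1 and 48.0 FPKM with PIO and at 45.4, 46.2 and 46.8 FPKM in control. Neither gene had overlapping groups, with means 5.11% and 6.63% above control (log2 fold changes 0.07 and 0.09, SE 0.03 and 0.04, limma adjusted p = 0.426 and 0.390). The ratio of Hadha to Hadhb was 1.71 ± 0.0768 with PIO and 1.73 ± 0.0202 in control, and the groups overlapped.

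The Hadha and Hadhb genes face away from each other, and their promoters are shown because both subunits share 1 stretch of DNA. In the RefSeq annotation of the rat build GRCr8, which is not known to be the build behind the FPKM values, their start sites lie on opposite strands with 300 bases between them, and the windows of 250 bases before to 50 after each start overlap over 200 bases. The window of Hadha, chr6:31907551-31907850 on the plus strand, is printed 5′ to 3′ with the bases that also belong to the Hadhb window in capitals.
Hadha: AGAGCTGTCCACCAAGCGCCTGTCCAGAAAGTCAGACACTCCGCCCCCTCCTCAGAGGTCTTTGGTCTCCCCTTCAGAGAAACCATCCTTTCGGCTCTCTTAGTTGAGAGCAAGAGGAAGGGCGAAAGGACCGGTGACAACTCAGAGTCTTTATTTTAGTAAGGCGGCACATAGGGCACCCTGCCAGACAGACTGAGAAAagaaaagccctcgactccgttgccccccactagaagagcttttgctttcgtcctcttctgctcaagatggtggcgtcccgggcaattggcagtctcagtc

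The short-chain hydroxyacyl-CoA dehydrogenase gene Hadh and the thiolase gene Acaa2 had the largest log2 fold changes above 0 of the mitochondrial genes after Echs1. Hadh stood at 35.8, 37.2 and 38.5 FPKM in PIO replicates 1 to 3 and at 33.3, 34.6 and 31.0 FPKM in control replicates 1 to 3 (12.8% higher in the mean; log2 fold change 0.17, SE 0.05, limma adjusted p = 0.309). Acaa2, which cleaves medium chains, stood at 27.5, 30.1 and 30.0 FPKM with PIO and at 26.0, 26.4 and 24.4 FPKM in control (14.3%; 0.19, SE 0.05, limma adjusted p = 0.304). In both genes the lowest PIO library lay above the highest control library, and neither passed. Acat1, the acetoacetyl-CoA thiolase that also serves ketone bodies and isoleucine, was the second most abundant member and nearly level, at 102, 104 and 103 FPKM with PIO and at 102, 103 and 98.9 FPKM in control (0.03, limma 95% interval -0.05 to 0.10, adjusted p = 0.741). Without control replicate 3 the log2 fold change of Acat1 was 0.0119. Hsd17b10, a hydroxyacyl-CoA dehydrogenase that also belongs to mitochondrial RNase P, averaged 57.6 ± 3.17 FPKM with PIO and 53.5 ± 2.36 FPKM in control (0.10, limma adjusted p = 0.443).

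Echs1, the short-chain enoyl-CoA hydratase gene of the hydration step, had the widest spread between replicates of the tested members. It stood at 6.91, 3.82 and 5.58 FPKM in PIO replicates 1 to 3 and at 5.35, 3.98 and 0.972 FPKM in control replicates 1 to 3. The groups overlapped. The low value of control replicate 3 came from 21 reads, against 118 and 82 in the other control libraries. The log2 fold change was 0.78 with an SE of 0.46 (limma adjusted p = 0.506), and without control replicate 3 it was 0.18 (SE 0.22, limma adjusted p = 0.773). The value is uncertain because a row annotated as similar to mitochondrial enoyl-CoA hydratase, LOC100911186, is listed beside it and reads may be shared between the copies. LOC100911186, looked at after its values were seen, had 69, 13 and 82 reads with PIO and 6, 9 and 7 reads in control (limma adjusted p = 0.304). Together the rows held 211, 93 and 197 reads with PIO and 124, 91 and 28 reads in control, so PIO replicate 2 stayed within the control range.

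**Figure D5:**
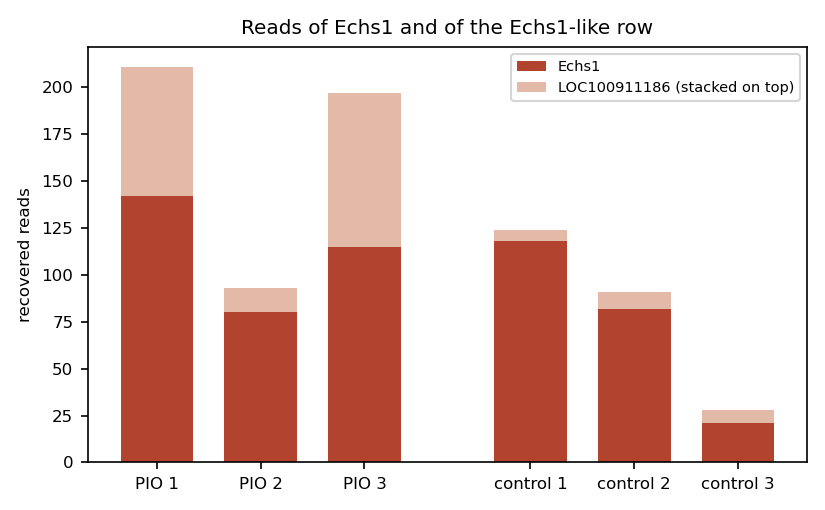
Bars give the reads recovered for Echs1 in each library, with those of the related row LOC100911186 stacked on top, PIO libraries on the left and control libraries on the right. PIO replicates 1 and 3 are high at 211 and 197 reads in sum and control replicate 3 is low at 28.

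The auxiliary enzymes of unsaturated chains lay close to control apart from Eci2. Eci1, the mitochondrial enoyl-CoA isomerase gene, averaged 19.4 ± 1.41 FPKM with PIO and 19.1 ± 1.71 FPKM in control, and Decr1, the mitochondrial dienoyl-CoA reductase gene, 44.3 ± 1.46 and 42.8 ± 2.199 FPKM (SD, n = 3 each). Eci2, an isomerase found in peroxisomes and mitochondria, stood at 14.3, 14.0 and 15.0 FPKM in PIO replicates 1 to 3 and at 13.3, 13.5 and 11.5 FPKM in control replicates 1 to 3. Its groups did not overlap and control replicate 3 was lowest (log2 fold change 0.17, SE 0.07, limma adjusted p = 0.379; 0.10 without control replicate 3). Ech1, a dienoyl-CoA isomerase, stood at 35.9, 37.7 and 32.4 FPKM with PIO and at 36.0, 32.8 and 35.2 FPKM in control, with full overlap (0.03, limma 95% interval -0.12 to 0.17, adjusted p = 0.882). The peroxisomal reductase gene Decr2 averaged 4.96 ± 0.215 and 4.88 ± 0.460 FPKM. The racemase gene Amacr, which prepares branched chains and bile acid intermediates for oxidation, stood at 11.1, 11.7 and 11.98 FPKM with PIO and at 11.7, 10.7 and 11.5 FPKM in control, again overlapping (0.04, limma adjusted p = 0.796).

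At the entry to peroxisomes, the transporter gene Abcd3 was the peroxisomal member with the smallest p. Abcd3, which carries long and branched acyl-CoA across the peroxisomal membrane, stood at 13.9, 15.0 and 14.7 FPKM in PIO replicates 1 to 3 and at 13.5, 13.2 and 12.7 FPKM in control replicates 1 to 3. The groups did not overlap (10.55% higher in the mean; log2 fold change 0.14, SE 0.05, limma 95% interval 0.02 to 0.26, adjusted p = 0.366). Its relative Abcd2, a transporter of very long chains, had 3, 1 and 0 reads with PIO and 0, 0 and 1 reads in control, at or under the floor of 3 reads, and no fold is given. Of the oxidase genes in the set, Acox2, which takes bile acid intermediates, was listed at 0 in all 6 libraries, and Acox3, which takes branched chains, averaged 4.78 ± 0.208 FPKM with PIO and 4.44 ± 0.00363 FPKM in control (0.10, limma adjusted p = 0.558). Acox3 values did not overlap between the groups, with the control libraries nearly identical.

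The peroxisomal hydration and thiolysis genes divided into 1 barely detected and several well-measured genes. Ehhadh, the bifunctional enzyme that is among the most inducible PPARα targets in rodent liver, had 17, 15 and 20 reads with PIO and 15 reads in each control library. Its mean of 0.363 FPKM was under the minimum for testing, and its groups overlapped at 0.390, 0.338 and 0.458 FPKM with PIO and 0.321, 0.343 and 0.327 FPKM in control. Hsd17b4, the bifunctional enzyme gene for branched chains, averaged 25.5 ± 1.07 and 24.4 ± 1.25 FPKM (0.06, limma adjusted p = 0.641). The thiolase gene Acaa1a stood at 26.9, 27.8 and 29.9 FPKM with PIO and at 28.2, 26.8 and 25.5 FPKM in control, and the groups overlapped (0.07, limma adjusted p = 0.608). For Acaa1a it was 0.0344 without control replicate 3, and leaving out single libraries gave 0.0293 to 0.1059. Its copy Acaa1b was listed at 0 in every library, and reads could be assigned to either. Scp2, the thiolase and sterol carrier gene, stood at 42.9, 43.3 and 43.1 FPKM with PIO and at 42.9, 39.7 and 38.2 FPKM in control. The lowest PIO and the highest control value of Scp2 were equal to 3 digits (0.10, limma adjusted p = 0.439; 0.0616 without control replicate 3).

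Genes around the peroxisomal cycle had overlapping groups. Cat, the catalase that removes the hydrogen peroxide made by the oxidases, stood at 30.8, 28.1 and 32.7 FPKM in PIO replicates 1 to 3 and at 28.5, 29.1 and 29.8 FPKM in control replicates 1 to 3. PIO replicate 2 was below all controls and the other PIO libraries above them (log2 fold change 0.07, limma 95% interval -0.07 to 0.20, adjusted p = 0.652). Leaving out single libraries put the Cat value between 0.0145, without PIO replicate 3, and 0.12, without PIO replicate 2. Pex11a, which promotes peroxisome division and is known as a PPARα target in rodent liver, averaged 4.32 ± 0.203 FPKM with PIO and 3.84 ± 0.664 FPKM in control (0.16, limma adjusted p = 0.564; 0.08 without control replicate 3 and 0.28 without control replicate 2). Acot8, a peroxisomal thioesterase gene, averaged 7.70 ± 0.725 and 7.58 ± 0.728 FPKM. The mitochondrial thioesterase gene Acot2 stood at 2.48, 3.10 and 2.69 FPKM with PIO and at 2.88, 2.88 and 2.69 FPKM in control (-0.03, limma adjusted p = 0.902; -0.06 without control replicate 3). The value of Acot2 is uncertain, as leaving out single libraries gave -0.1066 to 0.0309. Acot2 also has close relatives, and whether reads are shared with them was not tested. Of these, Acot1 averaged 0.01474 and 0.01497 FPKM and Acot3 6.21 ± 0.491 and 5.515 ± 0.533 FPKM.

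The promoters were searched for the element that PPAR and its partner RXR bind as a pair, the direct repeat DR1, which is AGGTCA repeated with 1 free base between the copies, allowing up to 2 mismatches at the fixed letters on either strand. RefSeq windows in GRCr8 of 250 bases before to 50 after the start matched 33 of the 37 members. A match was present in 6 of the 33 (18.2%), against 2.61% of 9359 windows of genes tested and 3.77% of all 33469 windows. With at most 1 mismatch it was present in 2 (6.06%), against 0.385% and 0.439%, and without a mismatch in 0, against 0.0427% of genes tested. The shares among mitochondrial (3 of 18) and peroxisomal members (2 of 12) were both 16.7%. The single hexamer AGGTCA, which is part of the repeat, was in 33.3% of member windows, 11.7% of those of genes tested and 16.2% of all. The median GC content of member windows was 59.7%, and of windows of genes tested 60.3%.

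The 6 matches are printed to show how close each comes to the repeat, 5′ to 3′ on the strand of the match, with letters that equal the repeat in capitals and the free position or a mismatch in lower case.
Acadvl: AGGTCAgtGGTCA
Acot8: gGGTCAgAGGTCA
Amacr: AGacCAaAGGTCA
Cat: AGGTCAgAGagCA
Echs1: AGaTCAgAGGTCt
Etfa: AGGgCAaAGGTaA

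Acadvl and Acot8 held the matches with 1 mismatch, and both matches lay just upstream of the start, their first base at -17 in Acadvl and -22 in Acot8. The others began at -208 in Amacr, -169 in Cat, -155 in Echs1 and -154 in Etfa. The full windows of the closest matches follow 5′ to 3′ with the whole match in capitals, Acadvl from chr10:55236656-55236955 and Acot8 from chr3:173962139-173962438, both on the minus strand of GRCr8.
Acadvl: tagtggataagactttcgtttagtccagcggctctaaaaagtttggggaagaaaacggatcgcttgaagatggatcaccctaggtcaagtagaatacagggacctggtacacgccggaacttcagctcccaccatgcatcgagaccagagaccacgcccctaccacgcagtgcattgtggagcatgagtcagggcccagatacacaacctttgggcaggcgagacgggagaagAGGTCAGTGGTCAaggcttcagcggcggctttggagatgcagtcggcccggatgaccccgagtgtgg
Acot8: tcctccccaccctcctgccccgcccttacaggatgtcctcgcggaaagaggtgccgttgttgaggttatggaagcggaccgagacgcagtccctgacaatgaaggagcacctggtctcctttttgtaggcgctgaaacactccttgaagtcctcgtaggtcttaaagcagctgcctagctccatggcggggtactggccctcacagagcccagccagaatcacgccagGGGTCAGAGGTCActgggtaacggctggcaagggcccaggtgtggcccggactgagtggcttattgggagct

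Log2 fold changes of the 6 genes were 0.10 for Acadvl, 0.02 for Acot8, 0.04 for Amacr, 0.07 for Cat, 0.78 for Echs1 (0.18 without control replicate 3) and 0.05 for Etfa, none past the threshold (limma adjusted p = 0.406 to 0.941). Etfb, Hadh and Acads, among the members with the smallest p, held no match in their windows, and Acaa2 has no window here. A match describes letters in a window and not binding, and its absence says only that the letters are not in that window.

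Neighbouring steps were read from the same fit. In the carnitine shuttle, which brings long chains into mitochondria ahead of these enzymes, 1 of 8 tested genes passed and was higher, and their median of 0.08 was 0.0473 without control replicate 2 and 0.0542 under TPM scaling. That gene, Cpt1a, stood at 12.7, 12.3 and 12.6 FPKM in PIO replicates 1 to 3 and at 5.90, 6.49 and 5.76 FPKM in control replicates 1 to 3 (log2 fold change 0.99, SE 0.06, limma adjusted p = 0.00159). Its inner-membrane counterpart Cpt2 averaged 10.15 ± 0.266 FPKM with PIO and 9.17 ± 0.394 FPKM in control and did not pass (0.14, limma adjusted p = 0.379). The largest lower limit of the 95% intervals among the members was 0.07, while the lower limit for Cpt1a was 0.85, and among members only the upper limit of Echs1 reached that value.

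No other neighbouring list had a member past the threshold. Of 20 tested genes of branched-chain amino acid and propionate breakdown 14 were above 0 and 6 below. Their median log2 fold change of 0.03 had no stable direction, at -0.0095 without control replicate 2, 0.0825 without control replicate 1 and 0.0006 under TPM scaling. Those with the smallest p were Dbt, a subunit of the branched-chain ketoacid dehydrogenase (13.04 ± 0.578 FPKM with PIO and 14.75 ± 0.830 FPKM in control; -0.17, limma adjusted p = 0.341), and Auh of leucine breakdown (9.675 ± 0.556 and 8.55 ± 0.218 FPKM; 0.17, limma adjusted p = 0.358). Of 15 tested peroxins, the proteins that build peroxisomes, 9 were above 0 and 6 below, with a median of 0.03 that was 0.0777 without PIO replicate 1 and 0.0043 under TPM scaling. Pex14 of the import docking complex (16.1 ± 0.398 and 14.4 ± 0.258 FPKM; 0.16, limma adjusted p = 0.304) and Pex2 of the peroxisomal ubiquitin ligase (9.65 ± 0.463 and 10.8 ± 0.688 FPKM; -0.15, limma adjusted p = 0.402) had the smallest p. Of 16 tested other peroxisomal enzymes and transporters 11 were above 0 and 5 below, with a median of 0.08 that was 0.0447 without control replicate 2 and 0.0478 without PIO replicate 3. Those with the smallest p were Agps of ether lipid synthesis (12.8 ± 1.90 and 17.3 ± 1.73 FPKM; -0.43, limma adjusted p = 0.290) and Phyh of phytanic acid oxidation (16.04 ± 0.930 and 13.98 ± 0.7 FPKM; 0.19, limma adjusted p = 0.332).

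Several members overlap another protein-coding gene in the RefSeq annotation, 5 in all: Acad11 with Ackr4, Ech1 with an unnamed locus, Acox3 with Trmt44, Acaa1a with Myd88, and Acot8 with Snx21 and Zswim3. The library kit keeps strand, but the sources used here do not give whether the counting used it, so reads in such overlaps are uncertain.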

How the data were processed

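RNA-seq was made from 6 libraries of RBL-2H3 cells, 3 with PIO and 3 control, with a stranded mRNA kit per the labels' protocols. The authors deposited FPKM values per gene. Tools named in the submitters' processing notes include HTSeq, Cufflinks, HISAT2 2.2.1.0 and Trimmomatic 0.36, with no role recorded. The notes name GRCh38, a human build, whereas gene identifiers are from rat, so the true build is unclear and no coordinates from the table appear. Whole reads and gene lengths were recovered from the FPKM steps for 15428 genes, 99.99% of those above 0, with a tolerance of 1e-04 of a read. They summed to 13980244 to 15012210 reads per library, 99.5% of the scaling total, and give a floor of 3 reads for a gene at 0. Floors cover counting error only.

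Genes averaging 0.5 FPKM or more were tested on log2(FPKM + 0.5), a scale that understates changes of low genes, with limma 3.58.1 in R 4.3.3, no term besides group, a trend in the variance, two-sided tests and Benjamini-Hochberg adjustment over 10410 genes at 0.05. The procedure was tested on simulated data with changes of at least 0.5 on the log2 scale, larger than those of all members but Echs1. Smaller changes were not simulated. Alternatives covered the pseudocount, filter, scaling, variance model, replicate block, voom on recovered reads, gene length (chosen after seeing the data) and leaving out each library. The members and lists were chosen with earlier results of these data known. Values in every library are given for members with an unadjusted p under 0.05, the 3 most abundant of each compartment and those below 0; Acadvl, Acox3, Echs1 and Pex11a are treated further after their values were seen. Of each neighbouring list the 2 genes with the smallest p and any past the threshold are named. Promoter windows are from RefSeq, GRCr8. Protein sequences were not used here.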

Additional observations from a re-analysis of the deposited data

How the results depend on the processing

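No member passed the threshold under any of 20 alternative settings, and the lowest adjusted p, by limma with Benjamini-Hochberg adjustment, was 0.168 for Acaa2 without PIO replicate 1. Of the 34 tested members 26 kept the sign of their log2 fold change in every setting in which they were tested; a minimum mean of 5 FPKM left only 26 members to test. Over all genes tested 4 passed, against 1 with no filter, 2 with no variance trend, 7 with a robust variance fit, 7 with voom on recovered reads and 3 to 4 on leaving out single libraries. TPM scaling moved the median log2 fold change to 0.0422 for all members, 0.0512 for mitochondrial and 0.0418 for peroxisomal members. The correction for gene length, chosen after seeing the data, moved it to 0.0532 for all and 0.0564 for mitochondrial members. Leaving out single libraries gave 0.0642 to 0.0863 for all, 0.0641 to 0.1011 for mitochondrial and 0.0555 to 0.1023 for peroxisomal members, and -0.0294 to 0.0227 for the difference of the last 2. On leaving out single libraries Acot2 ranged from -0.1066 to 0.0309, Amacr from -0.0004 to 0.069 and Ech1 from -0.0224 to 0.087. Leaving out 1 library moved 25 of the 34 members by over 1.5 times. Signs turned in at least 1 setting for 8 members. Among them are Eci1, Etfdh, Decr2 and Acot8, with ranges on leaving out single libraries of -0.0377 to 0.0888, -0.0077 to 0.0283, -0.0133 to 0.0932 and -0.0548 to 0.0796. The others are Acat1 under TPM scaling (-0.0019), Acot2 without PIO replicate 1 (0.0309), Amacr without control replicate 2 (-0.0004) and Ech1 under TPM scaling (-0.0027), with the length correction (-0.0162), without PIO replicate 2 (-0.0224) and without control replicate 2 (-0.0131). The causes were not tested.

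Deviations from the group means of libraries with the same replicate number correlated at -0.0682, 0.0277 and 0.0776 across genes. Those of libraries with other numbers correlated at -0.0940 to 0.0822. These values depend on each other because each group mean comes from its own 3 libraries, so they cannot decide whether libraries were paired. The labels give only a shared number. With the replicate block 3 genes passed over all genes and 0 members, with a lowest member adjusted p of 0.383 by limma, and the median over members was 0.071.

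With 3 libraries a group and these depths, Ehhadh, Abcd2 and Acox2 were too low to test, and the 10.8% difference of Etfb, the most abundant member, did not pass.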
